A study of Homo sapiens with 4 samples.

Results

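ATP-binding cassette (ABC) genes were compared between HepG2 cells with STAT3 shRNA, in which a short hairpin RNA targets STAT3, and HepG2 cells with a control hairpin (Ctrl shRNA). HepG2 is an established human hepatoma line, grown in DMEM with fetal bovine serum, and STAT3 is a transcription factor that cytokine receptors switch on. Each group had 2 RNA-seq libraries. The labels do not say whether both libraries of a group are separate cultures, nor whether their numbers mark replicates or hairpins, so p-values measure the spread between these 4 libraries alone, which may be a technical one. The table columns of the STAT3 shRNA libraries are named "Si", which was inferred to mean that group. The genes were taken by name, as every table row whose symbol is ABC followed by a subfamily letter from A to G and a number. This gave 39 of 27452 rows, with 38 symbols, since ABCF2 stands on 2 rows.

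ABC proteins bind and hydrolyse ATP and use the energy to move lipids, bile salts, drugs, conjugates, peptides or metal complexes across membranes. Hepatocytes are known for ABC exporters of the bile canaliculus and for sterol exporters that load high-density lipoprotein, and tumour cells are known for ABC pumps that expel drugs. The proteins of subfamilies E and F have no membrane part and act on ribosomes.

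Total counts were 25862027 and 17694642 reads in the STAT3 shRNA libraries and 19283150 and 20133064 reads in the Ctrl shRNA libraries, so that 3 reads in a library stood for 0.113 to 0.163 CPM (reads of a gene relative to the scaled library total). STAT3 itself had 34.7 and 36.1 CPM with STAT3 shRNA against 245.03 and 244.3 CPM with Ctrl shRNA, a log2 fold change of -2.79 ± 0.09 (SE; edgeR quasi-likelihood adjusted p = 3.28e-07). The hepatocyte markers ALB and APOA1 were nearly absent, although the cells are labelled HepG2, a hepatoma line. ALB, the serum albumin gene, had 0 and 3 reads in the STAT3 shRNA libraries and 0 in both Ctrl shRNA libraries, and APOA1 had 1 and 2 reads against 0 and 0. APOB, TTR, SERPINA1, FGB, AFP and APOH were listed but not analysed here, so the hepatocyte list was not read as a whole. The 4 hepatocyte markers analysed here of 10 listed (ALB, APOA1, TF and HNF4A) summed to 8.14 and 5.65 CPM with STAT3 shRNA and 3.29 and 3.92 CPM with Ctrl shRNA. Within that sum HNF4A rose (3.99-fold, edgeR adjusted p = 0.00131) and TF fell (3.01-fold, edgeR adjusted p = 0.0236). The endothelial list reached at most 1.75 CPM in any library, and CD68 made up nearly all of the leukocyte sum (24.4 and 28.1 CPM against 10.9 and 14.6 CPM). Of 4 stellate or fibroblast markers tested 2 rose (ACTA2 by 1.08 and DCN by 0.46 on the log2 scale) and COL1A1 fell by 1.47, with a summed list of 44.5 and 41.6 CPM against 55.8 and 65.04 CPM. The biliary keratin KRT7 was at 725.7 and 702.3 CPM with STAT3 shRNA and at 1066 and 1166 CPM with Ctrl shRNA, and KRT19 at 163.6 and 158.4 against 95.7 and 118.8 CPM. Of 4 biliary markers listed, 3 were analysed here. SOX9, the remaining one of these, was nearly absent, with 9 and 9 reads against 3 and 4, and was not tested. The part of these marker levels in the results below was not tested.

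The promoter windows of 3 genes are shown because the study lowered a factor whose best known DNA site is the palindrome TTCNNNGAA. RefSeq windows (GRCh38.p14) of 250 bases before each annotated start were found for 30 of the 38 symbols, 45 windows in all, and that pattern stood in 2 of them (4.44%) against 6.57% of 35116 windows of all genes. The matches lay in 1 of 5 windows of ABCG2, the ABC gene with the smallest adjusted p among the falls, and in the window of ABCC5, which did not pass the test. ABCA13, which had the largest rise, had no match. Capitals mark the matched bases, which read the same pattern on both strands. The windows are chr4:88159291-88159540 (minus strand) for ABCG2, chr3:184017885-184018134 (minus strand) for ABCC5 and chr7:48171208-48171457 (plus strand) for ABCA13.
ABCG2: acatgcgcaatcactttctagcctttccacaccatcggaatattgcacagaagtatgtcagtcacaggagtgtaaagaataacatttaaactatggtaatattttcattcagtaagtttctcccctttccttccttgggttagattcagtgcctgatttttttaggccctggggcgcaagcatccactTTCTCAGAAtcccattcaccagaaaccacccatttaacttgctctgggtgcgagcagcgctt
ABCC5: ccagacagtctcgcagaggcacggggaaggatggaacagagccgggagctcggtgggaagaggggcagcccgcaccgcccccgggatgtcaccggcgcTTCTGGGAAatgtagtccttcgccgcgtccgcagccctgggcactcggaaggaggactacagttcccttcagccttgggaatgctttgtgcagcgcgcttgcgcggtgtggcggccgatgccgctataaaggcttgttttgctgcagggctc
ABCA13: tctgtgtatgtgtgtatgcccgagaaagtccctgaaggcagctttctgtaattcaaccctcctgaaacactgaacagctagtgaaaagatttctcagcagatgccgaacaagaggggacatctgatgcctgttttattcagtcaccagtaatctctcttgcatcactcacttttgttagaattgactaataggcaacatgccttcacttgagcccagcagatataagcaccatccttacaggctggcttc

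On the per-length scale of the deposited FPKM, the family ran from housekeeping levels to a few reads. In all 4 libraries 18 rows reached at least 10 FPKM, 12 rows stayed under 1 FPKM, and 9 lay between or crossed these bounds. The most abundant was ABCF1, an eIF2-binding protein, at 83.4 and 80.1 FPKM in the STAT3 shRNA libraries and 80.9 and 77.5 FPKM in the Ctrl shRNA libraries. ABCE1, which splits ribosomes after termination, followed at 51.1 and 59.97 FPKM with STAT3 shRNA and 53.7 and 46.7 FPKM with Ctrl shRNA. ABCF3 was at 56.6 and 47.9 against 48.7 and 47.4 FPKM, so the ranges of ABCE1 and ABCF3 overlapped in both groups and their order is not set by these libraries. The levels of the canalicular exporters stood far apart. The bilirubin glucuronide exporter ABCC2 was at 22.7 and 23.7 FPKM with STAT3 shRNA and 30.03 and 23.9 FPKM with Ctrl shRNA, whereas the bile salt pump ABCB11 was at 0.05 FPKM in both STAT3 shRNA libraries and at 0.05 and 0.03 FPKM in the Ctrl shRNA libraries.

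**Figure D1:**
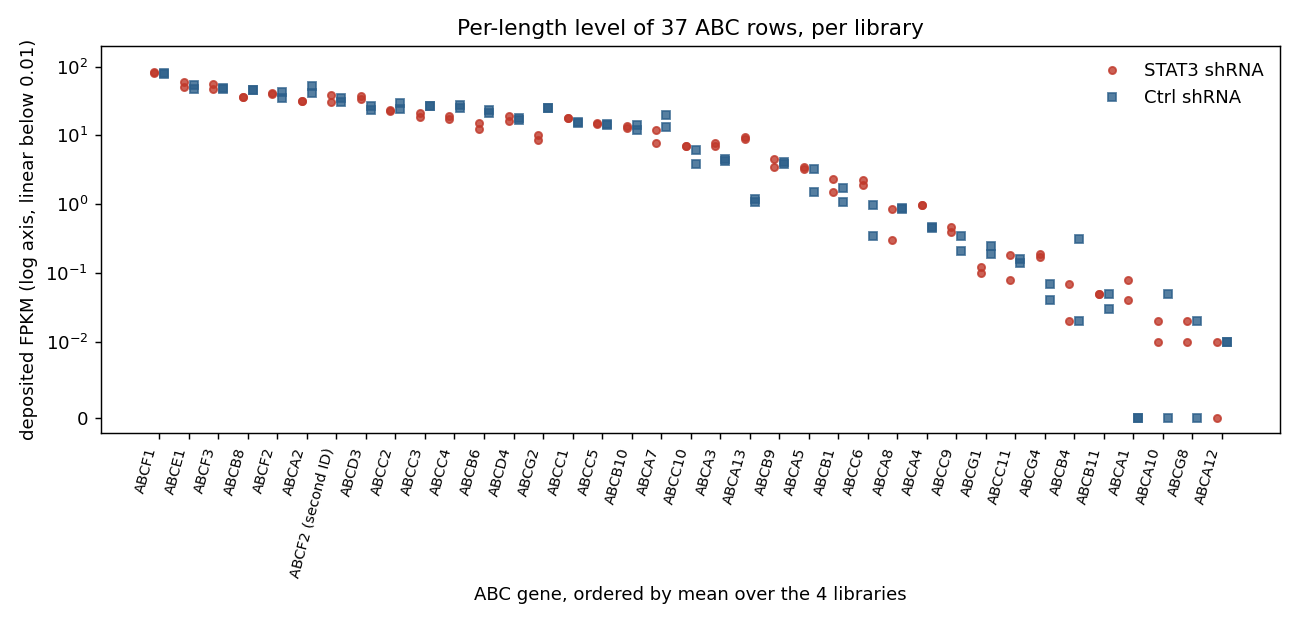
Deposited FPKM of 37 ABC rows in each library, on a log axis that is linear below 0.01, ordered by the mean over the 4 libraries, with STAT3 shRNA as circles and Ctrl shRNA as squares. ABCF1 leads at 77.5 to 83.4 FPKM, and the 9 untested genes at the right end reach at most 0.31 FPKM.

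Of the 39 rows, 30 had enough reads to be tested. With STAT3 shRNA 5 rose, 10 fell and 15 did not pass at an adjusted p under 0.05 (edgeR quasi-likelihood test, Benjamini-Hochberg over 15199 genes). The rises made up 16.7% of the tested ABC rows, against 16.8% of all tested genes, and the falls 33.3%, against 18.7% of all tested genes. In either direction 50% of the ABC rows passed, against 35.5% of all tested genes. The median log2 fold change was -0.09 over the ABC rows and 0.02 over all tested genes. Groups did not overlap in 21 of the 30 rows (70%), near the 70.8% of all tested genes. Changes of at least 2-fold were seen in 3 rises (ABCA13, ABCC6 and ABCA4) and 2 falls (ABCA8 and ABCG2), where 5.03% of all tested genes rose and 3.61% fell as much. In bulk RNA, fewer cells of a type and less RNA per cell cannot be told apart. The count of rises or of falls moved by more than 1.5 times when a STAT3 shRNA library was left out, with 2 rises and 8 falls without replicate 1 and 2 rises and 6 falls without replicate 2, and with the deposited FPKM in limma-trend, with 4 rises and 5 falls at log2(FPKM + 1). DESeq2 called 3 rises and 9 falls.

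**Figure D2:**
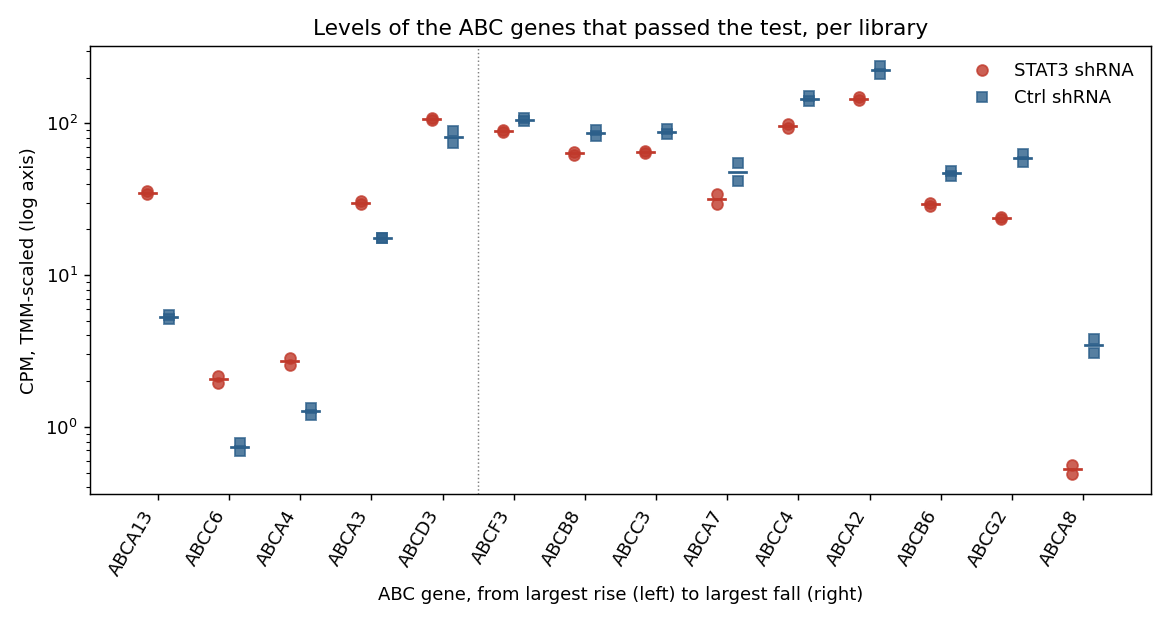
CPM per library on a log axis for 14 ABC genes that passed the edgeR test, ordered from the largest rise to the largest fall, with a short bar at each group mean (n = 2), circles for STAT3 shRNA and squares for Ctrl shRNA; the dotted line parts 5 rises from 9 falls. The groups do not overlap in any of the 14 genes, which were picked by the test on these same libraries. Of all tested genes 70.8% do not overlap either. ABCA13 and ABCA8 stand farthest apart.

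Genes of lipid and sterol transport held the widest changes, in both directions. Of 13 such rows of subfamilies A and G, 7 were tested, of which 3 rose, 3 fell and 1 did not pass. The changed share of these 7 rows was 85.7%, against 35.5% of all tested genes. ABCA13, a very large subfamily A protein, was at 34.1 and 35.5 CPM with STAT3 shRNA, against 5.46 and 5.12 CPM with Ctrl shRNA. Both STAT3 shRNA libraries lay well above both Ctrl shRNA libraries. Its means of 34.8 ± 1.02 and 5.29 ± 0.239 CPM (SD, n = 2 each) gave a log2 fold change of 2.72 ± 0.13, a 6.57-fold rise (95% interval 2.43 to 3.001 on the log2 scale; edgeR adjusted p = 3.53e-06). ABCA13 (ENSG00000179869.15) lies at chromosome 7, 48171458 to 48647496, plus strand, in GENCODE 29 (GRCh38), and its deposited FPKM were 9.39 and 8.81 with STAT3 shRNA against 1.18 and 1.09 with Ctrl shRNA.

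ABCA3, the phospholipid transporter of lamellar bodies in the lung, was at 29.2 and 30.6 CPM with STAT3 shRNA and at 17.6 and 17.5 CPM with Ctrl shRNA. It rose by 0.77 ± 0.10 on the log2 scale (edgeR adjusted p = 0.000814). ABCA4, the retinoid flippase of photoreceptors, was low in both groups, at 2.85 and 2.55 CPM with STAT3 shRNA against 1.33 and 1.20 CPM with Ctrl shRNA. Its rise of 1.10 ± 0.32 (edgeR adjusted p = 0.0281) did not pass in DESeq2 (adjusted p = 0.107), with the FPKM (0.0697 and 0.0845), without either STAT3 shRNA library (0.199 and 0.117) or without Ctrl shRNA replicate 2 (0.0541), with a range of 0.0138 to 0.199 over its alternatives.

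ABCA8, a cholesterol exporter linked to high-density lipoprotein, had the largest fall. It held 15 and 9 reads in the STAT3 shRNA libraries and 58 and 73 reads in the Ctrl shRNA libraries, which is 0.563 and 0.489 CPM against 3.08 and 3.82 CPM. All of these are low levels, and the groups were far apart in reads. The log2 fold change was -2.69 ± 0.37 (edgeR adjusted p = 0.000816). The deposited FPKM did not show it, at 0.30 and 0.84 with STAT3 shRNA and 0.89 and 0.86 with Ctrl shRNA, with an adjusted p of 0.355 at log2(FPKM + 1) and a range of 4.33e-10 to 0.356 over its alternatives. Reads and FPKM of ABCA8 together implied gene lengths of 1933 and 606 bases in the STAT3 shRNA libraries and 3380 and 4216 bases in the Ctrl shRNA libraries, that is, the ratio of reads to FPKM was not the same in each library. The reason for that was not tested.

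ABCA2 and ABCA7 fell less and from higher levels. ABCA2, an endosomal sterol and sphingolipid handler, was at 149.3 and 141.3 CPM with STAT3 shRNA and at 211.4 and 237.2 CPM with Ctrl shRNA (log2 fold change -0.63 ± 0.09, edgeR adjusted p = 0.00105). ABCA7, a phospholipid exporter and a risk locus of Alzheimer's disease, was at 34.2 and 29.2 CPM against 41.4 and 54.6 CPM (-0.60 ± 0.14, edgeR adjusted p = 0.0122). The Ctrl shRNA libraries of ABCA7 differed from each other by more than the STAT3 shRNA libraries did. Its call was lost with an offset for GC content, where the log2 fold change was -0.22 (adjusted p = 0.148), with both FPKM fits (0.121 each) and without STAT3 shRNA replicate 2 (0.0894). Without Ctrl shRNA replicate 2 it was at -0.38 (0.0129), and the range over its alternatives was 2.25e-06 to 0.156. ABCA5, a lysosomal protein, was at 10.5 and 10.9 CPM with STAT3 shRNA and 10.6 and 6.69 CPM with Ctrl shRNA and did not pass (log2 fold change 0.31, edgeR adjusted p = 0.292), although it did without Ctrl shRNA replicate 1 (0.65, adjusted p = 0.0137).

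The remaining lipid genes were too low to be tested. ABCA1, which loads cholesterol onto apolipoprotein A-I, had 21 and 7 reads in the STAT3 shRNA libraries and 0 in both Ctrl shRNA libraries. Pooled over libraries this was 0.621 CPM, at least 7.87-fold higher than a floor of 3 reads over the Ctrl shRNA group. It passed only where no low-count filter was applied (adjusted p = 0.000406). ABCG4, a sterol exporter of brain, had 14 and 8 reads with STAT3 shRNA and 2 and 4 with Ctrl shRNA, and ABCG1, which passes cholesterol to high-density lipoprotein, had 9 and 1 reads against 7 and 13. ABCG8, a sterol exporter of liver and intestine, had 3 and 1 reads against 3 and 0, ABCA10 had 1 and 1 against 5 and 0, and ABCA12, a skin lipid transporter, had 1 and 0 against 1 and 1. At this depth no difference could be read from ABCG1, ABCG8, ABCA10 or ABCA12.

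Among drug and organic anion exporters ABCG2 had the widest fall. Of 10 such rows, 9 were tested, of which 1 rose, 3 fell and 5 did not pass. The changed share was 44.4%, against 35.5% of all tested genes. ABCG2, the breast cancer resistance protein, which exports urate and many drugs, was at 24.1 and 23.4 CPM with STAT3 shRNA, against 62.3 and 55.8 CPM with Ctrl shRNA. Means were 23.8 ± 0.493 and 59.1 ± 4.57 CPM (SD, n = 2 each), and the groups lay far apart. The log2 fold change was -1.31 ± 0.10, a 2.48-fold fall (95% interval -1.54 to -1.08; edgeR adjusted p = 5.37e-05), and the FPKM of 10.2 and 8.56 against 24.8 and 25.4 showed it as well. ABCG2 (ENSG00000118777.12) lies at chromosome 4, 88090264 to 88231322, minus strand.

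The cyclic nucleotide and nucleoside exporter ABCC4 was at 93.0 and 98.4 CPM with STAT3 shRNA and at 151.2 and 139.7 CPM with Ctrl shRNA (-0.60 ± 0.09, edgeR adjusted p = 0.00100). The glucuronide exporter ABCC3 was at 65.2 and 64.0 CPM against 84.6 and 91.4 CPM (-0.45 ± 0.09, edgeR adjusted p = 0.00457). Both fell with groups that did not overlap, but the call of ABCC3 was lost without STAT3 shRNA replicate 1 (0.0533) or replicate 2 (0.063) and with the FPKM (0.0556 and 0.0553), with a range of 8.89e-05 to 0.063 over its alternatives. ABCC6, the liver exporter lost in pseudoxanthoma elasticum, was the only rise here, at 2.18 and 1.96 CPM with STAT3 shRNA against 0.689 and 0.784 CPM with Ctrl shRNA (1.48 ± 0.39, edgeR adjusted p = 0.0171). This rested on 58 and 36 reads against 13 and 15, and it did not pass in DESeq2 (0.0613), at log2(FPKM + 0.1) (0.069) or without STAT3 shRNA replicate 1 (0.124) or replicate 2 (0.0695), with a range of 0.00435 to 0.124. Adding the reads of its near-identical pseudogene ABCC6P1 gave a log2 fold change of 1.499 (adjusted p = 0.0150).

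The other exporters tested did not pass. ABCC1, the exporter of glutathione conjugates, was at 98.5 and 92.7 CPM with STAT3 shRNA and at 98.4 and 94.8 CPM with Ctrl shRNA, with a 95% interval of -0.20 to 0.17 for the log2 fold change. ABCC5, an exporter of organic anions, was at 65.7 and 66.2 CPM against 62.7 and 63.1 CPM (-0.12 to 0.26). ABCC2 was at 109.8 and 104.03 CPM against 124.0 and 118.6 CPM. ABCC2 was thus lower in both STAT3 shRNA libraries without passing (-0.18, interval -0.37 to 0.0052, edgeR adjusted p = 0.118). It passed with an offset for GC content (adjusted p = 0.0132) and without Ctrl shRNA replicate 2 (0.0321), with a range of 0.0121 to 0.568. ABCC10, a broad drug exporter, was at 17.5 and 16.6 CPM with STAT3 shRNA and at 16.6 and 15.6 CPM with Ctrl shRNA (-0.19 to 0.36). ABCB1, the multidrug pump P-glycoprotein, was at 4.09 and 4.67 CPM against 5.78 and 3.97 CPM, and its groups overlapped (-0.72 to 0.41). ABCC11 had 7 and 5 reads against 1 and 9 and was not tested. Its span shares bases with LONP2 on the opposite strand, a gene with 11099 reads.

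The canalicular genes ABCB11, the bile salt export pump, and ABCB4, the phosphatidylcholine floppase of bile, were near 0 in every library. ABCB11 had 8 and 6 reads with STAT3 shRNA and 6 and 3 with Ctrl shRNA, and ABCB4 had 3 and 1 against 3 and 2. A difference was not detectable for either at this depth. ABCC9, the sulphonylurea receptor subunit of potassium channels, was at 3.001 and 3.64 CPM with STAT3 shRNA against 2.76 and 1.73 CPM with Ctrl shRNA. Its log2 fold change of 0.56 ± 0.32 did not pass (edgeR adjusted p = 0.200), although it passed without Ctrl shRNA replicate 1 (0.0441).

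**Figure D3:**
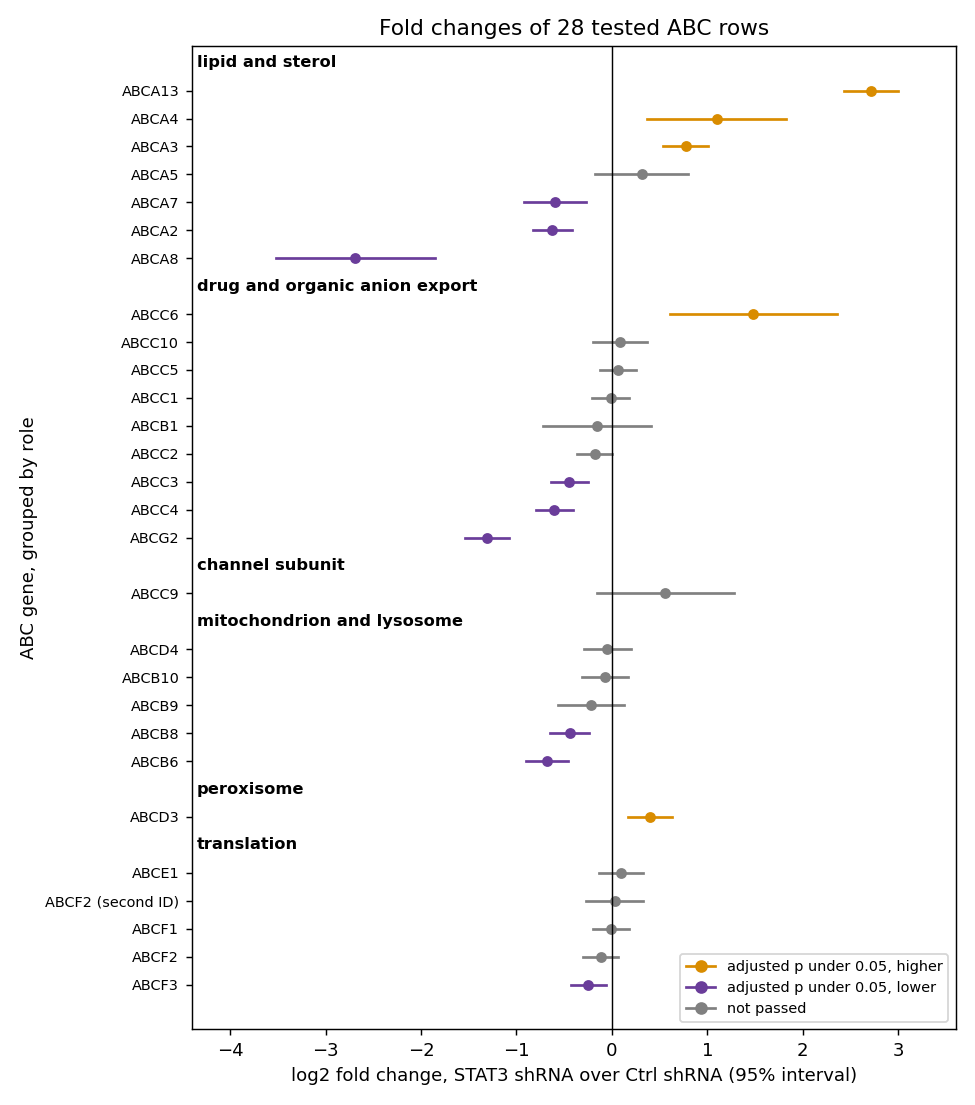
Log2 fold changes of 28 tested ABC rows (STAT3 shRNA over Ctrl shRNA, n = 2 each) with 95% intervals, grouped by role; orange marks adjusted p under 0.05 and higher, purple lower, grey not passed. ABCA13 at 2.72 and ABCA8 at -2.69 bound the range, and the genes of translation lie between -0.25 and 0.09.

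Among ABC proteins of mitochondria and lysosomes 2 of 6 fell and none rose, a changed share of 33.3% against 35.5% of all tested genes. ABCB6, a porphyrin transporter, was at 29.97 and 28.5 CPM with STAT3 shRNA, against 48.6 and 45.1 CPM with Ctrl shRNA (-0.68 ± 0.10, edgeR adjusted p = 0.00111). ABCB8, a mitochondrial inner membrane protein of iron handling, was at 64.9 and 61.5 CPM against 82.3 and 89.8 CPM (-0.44 ± 0.09, edgeR adjusted p = 0.0055). The groups did not overlap in either gene. Summed with AC068946.2, a gene that overlaps it on the same strand and shares 1216 near-identical transcript bases, ABCB6 was at -0.74. The call of ABCB8 was lost with an offset for GC content, where the log2 fold change was -0.18 (adjusted p = 0.0629), with the FPKM (0.0517 and 0.0527) and without STAT3 shRNA replicate 2 (0.0822), with a range of 0.000104 to 0.0822.

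ABCB10, a mitochondrial protein of haem synthesis, was at 45.6 and 47.7 CPM with STAT3 shRNA and at 53.02 and 45.0 CPM with Ctrl shRNA (interval -0.31 to 0.17). ABCD4, the lysosomal cobalamin transporter, was at 20.2 and 20.9 CPM against 21.1 and 21.3 CPM (-0.29 to 0.20). Neither ABCB10 nor ABCD4 passed. ABCB9, a lysosomal peptide transporter, was at 8.78 and 8.86 CPM against 10.1 and 10.5 CPM (edgeR adjusted p = 0.299). Its longest transcript shares 2753 identical bases with AC026362.1, a transcript annotated on the opposite strand, and the summed reads of both gave -0.40 (adjusted p = 0.0436). The opposite-strand genes OGFOD2 and ARL6IP4 overlap ABCB9 too, so its value is uncertain where strand was not used.

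The peroxisomal importer ABCD3, which takes up branched-chain acids and bile acid precursors, rose. It was at 105.3 and 108.9 CPM with STAT3 shRNA, against 88.8 and 73.9 CPM with Ctrl shRNA (0.40 ± 0.10, edgeR adjusted p = 0.0163). The groups did not overlap, and the Ctrl shRNA libraries lay farther from each other than the STAT3 shRNA libraries did. The call was lost without STAT3 shRNA replicate 1 (0.075) or replicate 2 (0.112), with a range of 0.000134 to 0.112.

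Genes of subfamilies E and F had log2 fold changes between -0.25 and 0.09, with 1 fall and 4 rows that did not pass. The changed share was 20%, against 35.5% of all tested genes. ABCF1 was at 214.9 and 208.5 CPM with STAT3 shRNA and at 222.8 and 204.8 CPM with Ctrl shRNA, with an interval of -0.20 to 0.17. ABCE1 was at 155.1 and 169.9 CPM against 165.1 and 139.6 CPM (-0.14 to 0.32), and its groups overlapped. OTUD4 on the opposite strand shares 18342 bases of the ABCE1 span and holds 45.04% as many reads. ABCF2 was at 126.6 and 133.4 CPM against 142.5 and 139.3 CPM on one row and at 74.3 and 56.4 CPM against 68.3 and 60.2 CPM on the second row (ENSG00000285292.1, named AC021097.2 in GENCODE 29). The transcripts of both rows share 1917 identical bases, and their summed reads had a log2 fold change of -0.07 (edgeR adjusted p = 0.539). ABCF3, a cytosolic protein of subfamily F, passed narrowly at 90.1 and 88.0 CPM against 103.5 and 107.8 CPM (-0.25 ± 0.08, edgeR adjusted p = 0.0431). Of its 14 alternatives 9 lost the call, among them DESeq2 (0.0516), the replicate number as a block (0.0679) and the loss of either STAT3 shRNA library (0.261 and 0.328). With the offset for GC content it was at -0.07, and with the FPKM the sign turned (0.11 at log2(FPKM + 1), adjusted p = 0.484), with a range of 0.00352 to 0.486.

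Of the 14 calls whose values are reported here, those of ABCA13, ABCA2, ABCA3, ABCB6, ABCC4 and ABCG2 were kept under each of their alternatives. With the offset for GC content ABCA2 was smaller at -0.28 (adjusted p = 0.0123) and ABCB6 at -0.45 (0.0125), and so were the calls of ABCC3 at -0.27 (0.0133) and ABCD3 at 0.22 (0.0339). At log2(FPKM + 1) ABCC6 was at 0.93 (0.0467) and ABCA4 at 0.42. Among 10 rows of at least 10 CPM that did not pass, the 95% intervals reached from -0.37 to 0.36 on the log2 scale, that is, up to 1.29-fold either way. Larger differences lie outside these intervals of the edgeR fit on counts, and smaller ones cannot be told from 0. The FPKM put ABCC10 beyond them, at 0.44 and 0.51, without passing (limma-trend adjusted p = 0.203 each).

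Chromosomal surroundings differed between the changed genes. For each ABC gene the 20 nearest tested genes on either side were read as a description. ABCB6, on chromosome 2 (219209766 to 219219017), had neighbours with a median log2 fold change of -0.74, of which 2 of 40 were above 0, and its own -0.68 lay close to that median. ABCA2 (neighbours -0.44) and ABCA7 (-0.39) also fell in regions with lower medians. ABCA4 and ABCD3 lie near each other on chromosome 1, share neighbours, and had medians of 0.39 each, with ABCD3 at 0.40 itself. The neighbours of ABCA13 (0.03), ABCA8 (0.08), ABCG2 (0.07) and ABCC6 (-0.02) lay near 0, so these genes stood apart from their surroundings by 2.69, -2.77, -1.38 and 1.498. Over the 15 changed genes 7 had the sign of their neighbours' median, and of the 15 tested rows that did not pass 9 did.

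**Figure D4:**
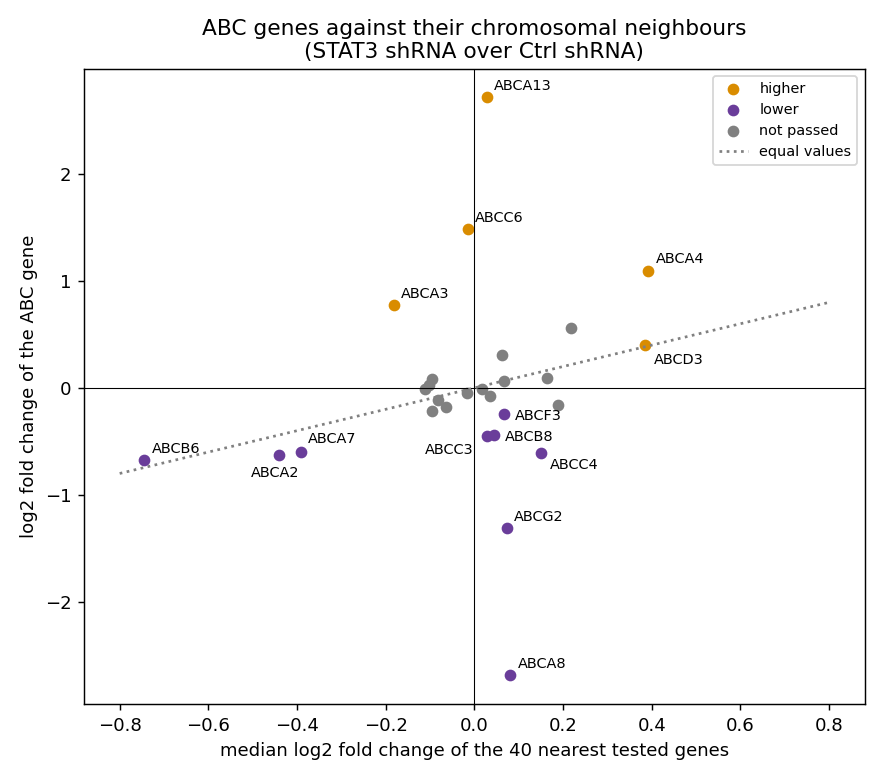
Log2 fold change of 28 tested ABC rows (STAT3 shRNA over Ctrl shRNA) against the median of the 40 nearest tested genes on the chromosome; the dotted line marks equal values, and genes that passed the edgeR test are named. ABCB6 and ABCD3 lie close to the line, whereas ABCA13, ABCC6, ABCG2 and ABCA8 lie far from it with neighbours near 0.

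Fold changes followed GC content weakly within the family. Spearman's rho between log2 fold change and transcript GC content was -0.28 over the 30 tested ABC rows and -0.34 over 14545 genes, and rho was -0.47 for the difference within the Ctrl shRNA pair. These are values across genes of the same 4 libraries. The 10 falls had a median GC content of 57.8% and the 5 rises 52.4%. With an offset for GC content 5 rises and 8 falls were called, 11 of them among the 15 called without it.

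Genes that work with the ABC proteins were read from 9 lists, of which 108 genes were tested, 13 rose, 30 fell and 65 did not pass. That is 39.8% changed, against 35.5% of all tested genes, with a median log2 fold change of -0.09. Under upper-quartile scaling the order turned, with 31.5% of the listed genes and 35.3% of all tested genes changed. The transporters TAP1 and TAP2, which carry peptides for antigen presentation and belong to the family under other names, did not pass. TAP1 was at 59.8 and 60.06 CPM with STAT3 shRNA and at 69.6 and 70.06 CPM with Ctrl shRNA, and TAP2 at 60.5 and 56.4 against 54.3 and 55.3 CPM. CFTR, the chloride channel of the family, had 12 and 6 reads against 3 and 2 and was not tested.

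Regulators of transporter genes moved both ways, with 4 higher and 4 lower of 17 (47.1% changed, against 35.5% of all tested genes). The aryl hydrocarbon receptor AHR was at 48.1 ± 1.80 CPM with STAT3 shRNA and 23.02 ± 3.13 CPM with Ctrl shRNA (SD, n = 2 each; log2 fold change 1.06, edgeR adjusted p = 0.000294). The oestrogen-related receptor ESRRA was at 48.01 ± 0.735 against 100.8 ± 19.8 CPM (-1.07, edgeR adjusted p = 0.00046), and the lipogenic factor SREBF1 at 154.5 ± 2.77 against 244.6 ± 17.03 CPM (-0.66, edgeR adjusted p = 0.000638).

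Partners of sterol export had 2 higher and 3 lower of 11 (45.5% changed, against 35.5% of all tested genes). SOAT1, which esterifies cholesterol, was at 394.8 ± 1.06 CPM with STAT3 shRNA and 174.6 ± 23.6 CPM with Ctrl shRNA (1.18, edgeR adjusted p = 9.37e-05), and the lipoprotein receptor SCARB1 at 174.99 ± 0.181 against 315.9 ± 22.1 CPM (-0.85, edgeR adjusted p = 0.000184). NPC1, the lysosomal cholesterol exporter, fell by 0.33. Bile acid genes had 1 higher and 2 lower of 7 (42.9% changed, against 35.5% of all tested genes). The uptake carrier SLCO1B3 was at 18.4 ± 0.824 against 5.23 ± 0.804 CPM (1.81, edgeR adjusted p = 0.000119). The receptor FGFR4 was at 17.6 ± 0.949 against 39.9 ± 5.26 CPM (-1.19) and the bile acid ligase SLC27A5 at 4.88 ± 1.01 against 13.1 ± 0.429 CPM (-1.44).

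Of the lists around the organelle transporters, peroxisomal genes had 36.8% changed and haem, iron-sulphur and cobalamin genes 41.7%, against 35.5% of all tested genes. Peroxisomal genes had 6 lower and 1 higher of 19, led by the import factors PEX6 (-0.94) and PEX5 (-0.69) and the acyl-CoA synthetase ACSL1 (-1.11). Haem, iron-sulphur and cobalamin genes had 9 lower and 1 higher of 24, with the iron-sulphur factor GLRX5 at -0.66 and the cobalamin factor MMADHC at -0.57. Medians were -0.02 and -0.13. Ribosome recycling and eIF2 genes had 3 lower and 1 higher of 14, a changed share of 28.6% against the same 35.5%. The ribosome rescue factor PELO was at -0.41, the release factor GSPT1 at 0.29 and EIF2B5, the exchange factor subunit of eIF2, at -0.26. Drug conjugation genes had 3 higher and 3 lower of 13, a changed share of 46.2%, again against 35.5%. The glutathione synthesis subunit GCLM was at 90.7 ± 8.29 CPM with STAT3 shRNA against 46.7 ± 2.96 CPM with Ctrl shRNA (0.96, edgeR adjusted p = 0.000238). The monooxygenase CYP1A1 was at 0.88 and the glutathione transferase GSTO1 at -0.35. KCNJ11, the channel partner of sulphonylurea receptors, had 18 and 20 reads against 9 and 3 and did not pass (edgeR adjusted p = 0.118).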

How the data were processed

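RNA sequencing measured gene expression in 4 HepG2 libraries. Per the file headers, the authors deposited a table of raw counts and a table of FPKM. The sources used here do not give the aligner, counter, build, annotation, kit or strand setting. Columns were matched to samples by name; "Si" was read as STAT3 shRNA, the only other group. Symbols came from the count table. Positions, GC content, overlaps and copies (blastn, at least 95% identity over 300 bases and 10% of the transcript, the last set after seeing hits) came from GENCODE 29 (GRCh38), which holds all 39 ABC IDs, 13 with the same version.

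The test on counts was edgeR 4.0.16 under R 4.3.3 (TMM, filterByExpr, glmQLFit and glmQLFTest, two-sided, group only, Benjamini-Hochberg over 15199 genes, threshold 0.05). CPM use TMM-scaled library sizes. Errors of CPM are SDs (n = 2) and of log2 fold changes SEs. Floors of 3 reads cover counting error only. Alternatives were RLE and upper-quartile scaling, a filter of 1 CPM in 2 libraries or none, the replicate block, GC offsets (lowess per library), DESeq2 1.42.0, limma 3.58.1 on log2(FPKM + 1) and log2(FPKM + 0.1), each library left out, a threshold of 0.01 and sums with copies. The test was checked on simulated data, where 16 of 50 genes with a 1.5-fold change were recovered. At 2-fold, 4-fold and 8-fold 46, 50 and 48 of 50 were, and 5 of 14999 unchanged genes were called. The simulation thus changed far fewer genes than the 5396 of 15199 that passed in the data. Its rates need not hold for the data. ABC rows were accounted for, those past the threshold or with at least 10 CPM by their values, and in each partner list the 3 smallest p-values past the threshold. Values of 2 tested ABC rows and 1 partner gene are not reported here. Members and lists were chosen with earlier results of these data known.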

Additional observations from a re-analysis of the deposited data

How the results depend on the processing

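Counts of rises, falls, all changed genes and changed partner genes were within 1.5 times the reported 5, 10, 5396 and 43 under most settings. Exceptions were DESeq2 (3 rises), log2(FPKM + 1) (5 falls, 2535 genes, 23 partners), log2(FPKM + 0.1) (3 rises, 5 falls, 2494 genes, 23 partners) and a threshold of 0.01 (2 rises, 2897 genes, 24 partners). With each library left out in turn, 2 to 7 ABC genes rose and 6 to 12 fell, 2680 to 7317 genes changed and 20 to 55 partner genes did. STAT3 kept its call under all 14 alternatives (-2.82 to -2.32). Upper-quartile scaling moved the median of all genes to 0.07, and GC offsets to 0.04. The cause of these shifts was not tested.

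The labels do not say what same-numbered libraries have in common. Their deviations correlated at -0.03 across genes (2 pairs), which cannot tell whether they share a culture, batch or hairpin. With the replicate block 5 ABC genes rose and 9 fell, and 5447 genes changed; ABCF3 alone of the ABC calls was lost.

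For the named ABC genes 340 alternative values were computed, of which 272 kept direction and side of the threshold, 37 lost the call, 2 of them with a change of sign, 3 gained one and 28 of genes that had not passed changed sign. The 2 were of ABCF3. Upper-quartile scaling gave ABCC1 0.033, ABCD4 0.0012 and ABCF1 0.034. The GC offset gave ABCC1 0.139, ABCD4 0.0236, ABCE1 -0.0877 and ABCF1 0.0922, and together with the replicate block 0.139, 0.0238, -0.0881 and 0.0943. The fits on log2(FPKM + 1) and log2(FPKM + 0.1) gave ABCB10 0.0193 and 0.0209, ABCC1 0.191 and 0.201, ABCD4 0.0126 and 0.0131, ABCF1 0.0445 and 0.0450, ABCF2 0.0624 and 0.0640, and ABCF3 0.114 and 0.116. With each library left out, values ran from -0.19 to 0.022 for ABCB10, -0.0596 to 0.0282 for ABCC1, -0.0261 to 0.19 for ABCE1, -0.0743 to 0.0216 for ABCF1 and -0.19 to 0.21 for the second row of ABCF2. Depth limits the 9 untested rows, with at most 21 reads in a library.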
